A study of Mus musculus with 12 samples.

Results

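The tRNAs that carry serine are read from mature tRNA fragments here through 5 isoacceptors, mature-tRNA-Ser-AGA, mature-tRNA-Ser-CGA, mature-tRNA-Ser-GCT, mature-tRNA-Ser-GGA and mature-tRNA-Ser-TGA, each named after its anticodon and written below without the prefix mature. They were taken by name from the 51 mature tRNA isoacceptors of the deposited annotation. Each isoacceptor has 3 fragment classes, so the family holds 15 of 153 tRNA-derived fragments (tRFs). Class tRF5 holds reads from the 5′ end of the mature tRNA, class tRF3 holds reads from its 3′ end with or without the CCA tail, and class other holds the remaining reads of that isoacceptor. Levels are given as RPM, the reads of a tRF per 1000000 clean reads of the library, rRNA reads left out.

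The study asked how a high-fat diet, inhibition of the kinase AMPK and angiogenin change small RNAs of the male germline. Sperm came from the epididymis of C57BL6/J male mice that received a control diet (CD, 16% of the energy from fat) or a high-fat diet (HFD, 69% by the sample labels, while the study's methods give a lower figure) from 4 weeks of age for 7 weeks. Each of the 3 CD and 3 HFD libraries pooled the sperm RNA of 3 mice, and no other allele or agent is named for these mice. TM4 is a mouse cell line described as Sertoli cells, the somatic cells that nurse germ cells in the testis. It gave 2 libraries of untreated cells (Ctrl), 2 of cells treated with the AMPK inhibitor Compound C (CC) at 10 µM for 12 hours and 2 of cells that overexpressed the full-length Ang coding sequence from a plasmid (Ang OE). The Ctrl libraries serve both TM4 comparisons. Angiogenin mRNA is not measured by small RNA libraries, so the overexpression could not be checked in these data.

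Cytosolic tRNA-Ser is one of the tRNA families with a long variable arm, a shape it shares with tRNA-Leu and with tRNA-SeC, the selenocysteine tRNA. Seryl-tRNA synthetase charges tRNA-Ser of every anticodon and also tRNA-SeC, and it recognizes the long variable arm rather than the anticodon. Angiogenin is a secreted ribonuclease that cuts tRNAs in the anticodon loop under stress and so gives 5′ and 3′ fragments. Mature mouse sperm is known for abundant 5′ fragments of tRNAs.

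Clean reads numbered 31710445 to 64038150 per library, and 1272431 to 4595103 of them matched mature tRNAs. Reads of tRNA-Ser numbered 93628 to 221092 in the sperm libraries and 12332 to 36974 in the TM4 libraries. Replicate libraries differed beyond counting error, since the chi-square statistic over the tRNA-Ser tRFs ran from 13.0 to 175 times its degrees of freedom. Nothing in the labels says that TM4 replicates came from separate cultures, so p-values for TM4 measure the spread between these libraries, which may be technical. CD replicate 2 stood apart from the other CD libraries: 5.46% of its mature tRNA reads were tRNA-Ser, against 2.92% and 2.04% in CD replicates 1 and 3. It also held the most RNA of the germ cell miRNA markers among the sperm libraries, 4500 RPM against 1694 to 2544 RPM in the other 5. The Sertoli marker mir-202 was close to absent from TM4 cells, where it stood at 0 to 0.110 RPM against 2.57 to 28.8 RPM in sperm, so TM4 cells lacked the miRNA marker of their label. Summed markers of smooth muscle (15332 to 29689 RPM), of red blood cells (6749 to 13352 RPM) and of epithelium (4480 to 7580 RPM) were present in every sperm library. In bulk libraries such as these, fewer cells of a type and less RNA per cell cannot be told apart.

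The genes show which fragments of the family can be told from each other. Structural search of the mouse genome build GRCm39 found 21 tRNA-Ser genes, 7 with the anticodon AGA, 3 CGA, 8 GCT and 3 TGA, all 82 nt long and with the anticodon at positions 34 to 36. RefSeq lists the same numbers of these genes and 1 tRNA-Ser-GGA gene of 73 nt, which the search did not find. The 21 genes hold 13 distinct sequences, of which 3 are given here, 5′ to 3′ without the CCA tail and with the anticodon in capitals, because the text below turns on their 5′ ends. By the GENCODE annotation 10 of the 21 genes are intergenic and 11 lie inside an annotated gene.
tRNA-Ser-TGA, chromosome 10: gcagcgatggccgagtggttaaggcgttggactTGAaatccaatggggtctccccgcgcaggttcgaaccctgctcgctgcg
tRNA-Ser-GCT: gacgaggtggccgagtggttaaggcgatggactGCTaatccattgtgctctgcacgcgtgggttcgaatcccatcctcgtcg
tRNA-Ser-CGA: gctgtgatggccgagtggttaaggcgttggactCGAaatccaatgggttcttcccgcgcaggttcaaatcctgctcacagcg

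The tRNA-Ser-TGA gene shown is intergenic at chr10:63265255-63265336 on the minus strand. The tRNA-Ser-GCT sequence is that of 3 genes, one of them intergenic at chr11:68953868-68953949 on the minus strand, and the tRNA-Ser-CGA gene is intergenic at chr13:22206589-22206670 on the minus strand. The other 2 tRNA-Ser-TGA genes are identical to genes of tRNA-Ser-AGA over the 33 nt before the anticodon. A 5′ fragment that ends there fits both isoacceptors, and the annotation divides such a read among them, so the tRF5 levels of AGA and TGA are not separate measurements. Genes of AGA and TGA also share up to 48 nt at their 3′ end, so their tRF3 levels are not fully separate either. From position 8 on, genes of AGA, CGA, GCT and TGA are identical to position 22 or beyond, so class other reads from that stretch can fit all 4 isoacceptors. The ratio of AGA to TGA tRF5 reads lay between 2.80 and 3.01 in the 6 sperm libraries and between 3.30 and 3.44 in the 6 TM4 libraries. The tRF5 of GCT and of CGA can be told from those of AGA, because no gene of either shares more than 2 nt of its 5′ end with an AGA gene.

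In sperm the family was dominated by 5′ fragments, and in TM4 cells by 3′ fragments that kept the CCA tail. Class tRF5 made up 78.6% to 82.4% of tRNA-Ser reads in the 6 sperm libraries and 9.47% to 14.99% in the 6 TM4 libraries. Class tRF3 made up 3.19% to 4.57% in sperm and 65.2% to 76.2% in TM4 cells. Reads with the CCA tail were 82.6% to 89.5% of the tRNA-Ser tRF3 reads in sperm and 99.8% to 99.9% in TM4 cells. Class other took a like share in both, 13.9% to 16.9% in sperm and 11.4% to 20.002% in TM4 cells.

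**Figure D1:**
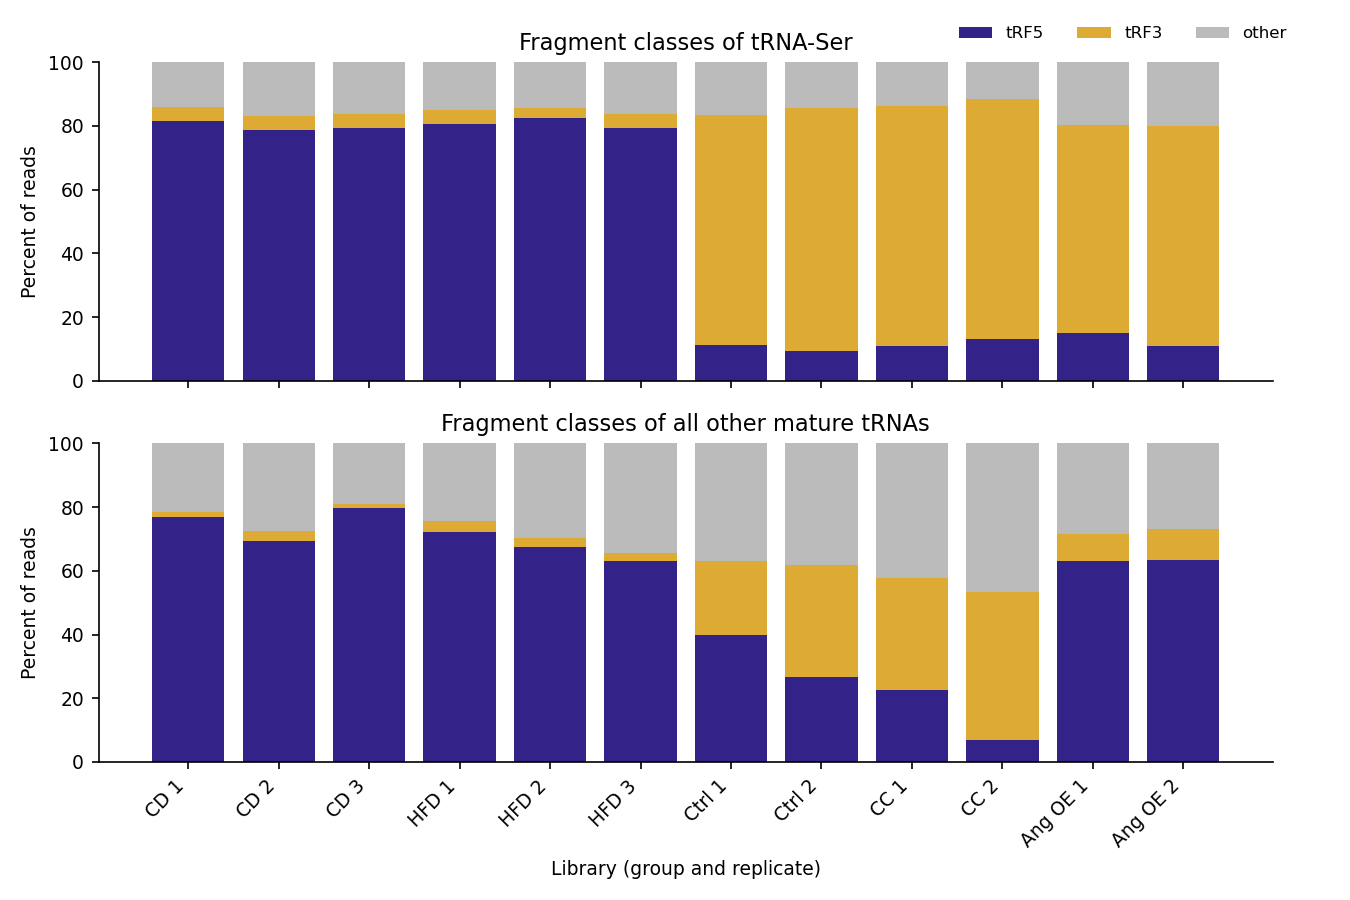
Percent of reads (vertical axis) in the classes tRF5, tRF3 and other for each of the 12 libraries (horizontal axis), for tRNA-Ser in the upper panel and for the other mature tRNAs together in the lower panel. The tRF5 share of tRNA-Ser is 78.6% to 82.4% in the sperm libraries and 9.47% to 14.99% in the TM4 libraries, while that of the other tRNAs ranges from 6.97% to 63.3% among the TM4 libraries.

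The makeup of tRNA-Ser was then set against that of the other mature tRNAs of the same library, with the exact 2-sided paired permutation test over 6 libraries, which cannot go below p = 0.031. It treats the libraries as separate pairs, though those of TM4 cells come from 3 conditions and may be technical replicates within each. The 3 class shares of a library are parts of the same whole, so their tests are not separate. In TM4 cells the tRF3 share was higher for tRNA-Ser than for the other tRNAs in 6 of 6 libraries, with means of 72.3% and 26.3% (exact permutation p = 0.031, and 0.047 after adjustment over the 3 classes). In sperm the tRF3 share was also higher for tRNA-Ser in 6 of 6 libraries, 4.23% against 2.46% (exact permutation p = 0.031, adjusted 0.047). The share of class other was lower for tRNA-Ser in both kinds of library, 15.5% against 26.1% in sperm and 16.0% against 36.6% in TM4 cells (exact permutation p = 0.031 each time, adjusted 0.047). The tRF5 share was 80.3% for tRNA-Ser and 71.5% for the other tRNAs in sperm, and 11.8% and 37.1% in TM4 cells, and neither difference passed the test (exact permutation p = 0.0625 for each). With genome-matched reads alone the tRF5 difference in sperm was 22.4 percentage points, against 8.86 with all reads, but in sperm that filter removes reads of class other and tRF3 of tRNA-Ser and none of its tRF5, so the larger value is no separate evidence on tRF5. In TM4 cells the tRF5 difference was -10.4 percentage points with genome-matched reads alone, against -25.3 with all reads.

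The Ang OE libraries show how far the family and the other tRNAs parted. Of the reads of the other mature tRNAs, 63.2% and 63.3% were tRF5 in the Ang OE libraries, against 39.9% and 26.7% in the Ctrl libraries and 22.6% and 6.97% in the CC libraries. The tRF5 share of tRNA-Ser was 14.99% and 10.9% in Ang OE, 11.2% and 9.47% in Ctrl and 10.8% and 13.2% in CC. In the family this share therefore stayed within a range of 9.47% to 14.99% over the 3 TM4 conditions. With 2 libraries a group an exact test cannot go below p = 0.333, and none is given for these shares.

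tRNA-Ser ranked 4th to 6th of 23 tRNA families by reads in the sperm libraries and 11th to 13th in the TM4 libraries. It took 2.92%, 5.46% and 2.04% of the mature tRNA reads in the CD libraries and 5.87%, 5.49% and 4.61% in the HFD libraries, for means of 3.47% ± 1.78 (SD, n = 3) and 5.32% ± 0.649 (SD, n = 3). The CD libraries span a wide range here, and CD replicate 2 lies among the HFD libraries, so the groups overlap. The difference did not pass the exact 2-sided permutation test (p = 0.2), which cannot go below 0.1 with 3 against 3. In TM4 cells the share was 1.64% and 2.25% in Ctrl, 1.92% and 2.91% in CC, and 0.677% and 0.605% in Ang OE, a log2 ratio of -1.60 for Ang OE against Ctrl. Its denominator moved too, since mature tRNA made up 2.27% and 2.76% of the clean reads without rRNA in Ctrl and 3.68% and 4.96% in Ang OE. As a level, the family stood at 452 and 509 RPM in Ctrl and at 249 and 299.9 RPM in Ang OE, a log2 ratio of -0.81. Counting error is small against these differences, with a 95% Wilson half-width of at most 0.0292 percentage points, an interval that covers counting error only.

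**Figure D2:**
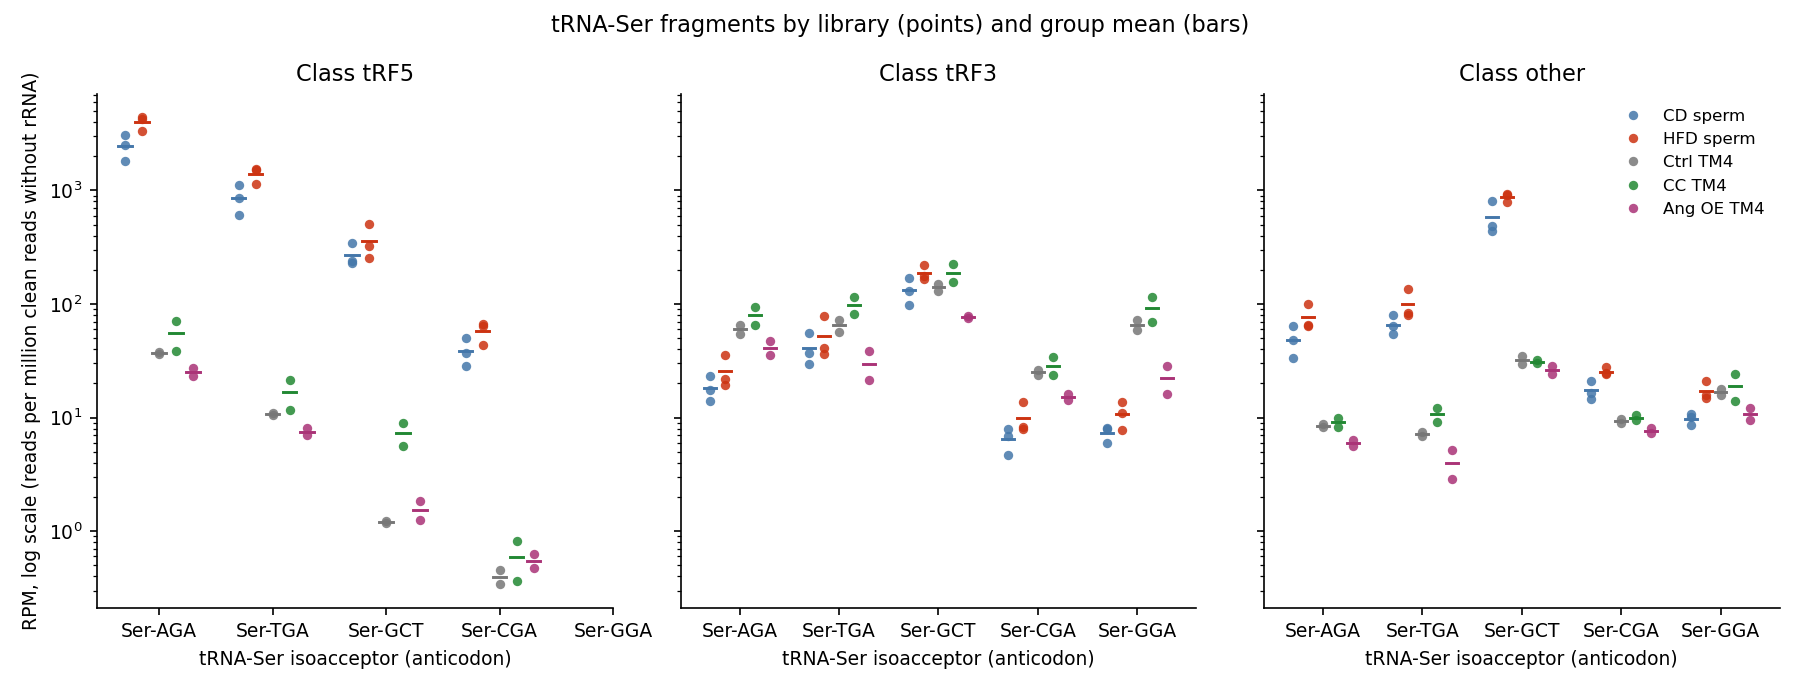
Level of each tRNA-Ser tRF in RPM on a log scale (vertical axis) by isoacceptor (horizontal axis) and class (panels), with 1 point per library and a bar at the group mean, for CD and HFD sperm and for Ctrl, CC and Ang OE TM4 cells. Values under 0.1 RPM, as for tRNA-Ser-GGA tRF5, are not drawn, and tRF5 levels in sperm lie far above those in TM4 cells for the 4 isoacceptors shown.

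The isoacceptors differed in the fragment classes listed for them. All the mature genes found have the same length, so their reads can be compared without a correction for length, except for the shorter tRNA-Ser-GGA. In sperm tRNA-Ser-AGA gave 54.4% to 58.5% of the family's reads, ahead of tRNA-Ser-TGA (20.4% to 21.9%) and tRNA-Ser-GCT (18.5% to 22.7%), whose ranges overlap, and of tRNA-Ser-CGA (1.27% to 1.41%) and tRNA-Ser-GGA (0.294% to 0.536%). In TM4 cells tRNA-Ser-GCT led with 34.1% to 40.3%, followed by tRNA-Ser-AGA (21.4% to 27.4%), by tRNA-Ser-TGA (13.0% to 19.6%) and tRNA-Ser-GGA (10.3% to 18.0%), whose ranges overlap, and by tRNA-Ser-CGA (5.82% to 8.97%). The order of tRNA-Ser-AGA and tRNA-Ser-TGA depends on how the annotation divides the reads that fit both, so it is not read as a difference between them. tRNA-Ser-AGA in sperm was nearly all 5′ fragment, since class tRF5 was 96.9% to 98.1% of its reads. For tRNA-Ser-TGA that share was 87.7% to 93.0% in sperm, for tRNA-Ser-CGA 57.9% to 65.0% and for tRNA-Ser-GCT 21.0% to 31.01%. tRNA-Ser-GCT was listed mainly as class other in sperm, with 55.5% to 65.2% of its reads there. Of those class other reads 79.2% to 88.2% lacked a genome match, while no tRF5 read of the isoacceptor did. Whether the annotation can label a read without a match as tRF5 was not tested, so this makeup may depend on the labels. tRNA-Ser-GGA tRF5 was listed at 0 in the 6 sperm libraries, which allows a level of at most 0.107 to 0.130 RPM per library for a count of 0, and at no more than 2.5 reads in a TM4 library. It was therefore not tested, and 14 tRNA-Ser tRFs passed the filter on low counts in each comparison.

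The contrast between CD sperm and Ctrl TM4 cells sets the size of these differences, although source, experiment and library batch cannot be told apart in it. The 5′ fragments were 67.2 to 225 times as high in CD sperm. Their median log2 fold change was 6.45, beside 2.46 over the tRF5 of all tRNAs tested. For tRNA-Ser-AGA tRF5 the 3 CD libraries stood at 2537, 3109 and 1818 RPM and the 2 Ctrl libraries at 38.0 and 36.0 RPM, a log2 fold change of 6.07 ± 0.50 (SE). For tRNA-Ser-GCT tRF5 they stood at 241, 347 and 229 RPM in CD and at 1.24 and 1.17 RPM in Ctrl, a log2 fold change of 7.82 ± 0.50 (SE). The 4 tRF5 tested were called higher, as were class other of tRNA-Ser-GCT, tRNA-Ser-TGA and tRNA-Ser-AGA, with log2 fold changes of 4.16, 3.20 and 2.52.

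The 3′ fragments went the other way in 3 isoacceptors. This direction was not particular to the family, whose tRF3 had a median log2 fold change of -1.72, beside -1.67 over the tRF3 of all tRNAs tested. For tRNA-Ser-GGA tRF3 the CD libraries stood at 8.06, 7.96 and 5.92 RPM and the Ctrl libraries at 59.1 and 72.4 RPM, a log2 fold change of -3.17 ± 0.35 (SE). The tRF3 of tRNA-Ser-CGA and tRNA-Ser-AGA were also called lower in CD sperm, with log2 fold changes of -1.95 and -1.72. Those of tRNA-Ser-TGA (-0.67) and tRNA-Ser-GCT (-0.09) were not called. A call here needed a fold change over 2 with an adjusted p under 0.05 by edgeR's quasi-likelihood test. In all, 7 tRNA-Ser tRFs were called higher and 3 lower, beside 50.3% of the 145 tRFs tested called higher and 27.6% called lower. The direction of the tRF3 belongs to the CCA-tailed reads: counted without that tail, the 3′ ends of tRNA-Ser-AGA, tRNA-Ser-CGA, tRNA-Ser-GCT and tRNA-Ser-TGA were higher in CD sperm, with log2 fold changes of 4.21, 3.61, 6.63 and 5.31. These values rest on few reads, since each of the 4 held 2 to 11 such reads in a Ctrl library and 11 to 678 in a CD library.

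Between the diets, every tRNA-Ser tRF tested had a higher mean level in HFD sperm, with log2 fold changes from 0.35 to 0.81, but TMM scaling turned the sign for tRNA-Ser-GCT tRF5 and tRNA-Ser-TGA tRF3. The bulk of the tRFs lay on the same side, since 91.5% of the 142 tRFs tested had a log2 fold change above 0 and the median over all was 0.44, against 0.59 for the family. TMM scaling over tRFs moved the median of all tRFs to -0.06, so the differences between the diets are relative to the library size used. A call in sperm needed a fold change over 1.5 with p under 0.05 before adjustment. By edgeR's quasi-likelihood test 5 of 14 tRNA-Ser tRFs were called higher in HFD sperm and 0 lower, beside 16.2% of all tRFs tested called higher and 0.0% called lower. The tRF5 of tRNA-Ser-AGA and of tRNA-Ser-TGA, which share reads, are both among these calls. TMM scaling and DESeq2 with its own size factors each left 0 of these calls. At an adjusted p under 0.05 by edgeR 0 of the 14 were called, as were 0.0% of all tRFs, with 5 of them at an unadjusted p under 0.05, and DESeq2 also called 0 at that level, with the same library sizes as with its own size factors.

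The member listed with the highest level, tRNA-Ser-AGA tRF5, stood at 2537, 3109 and 1818 RPM in the CD libraries and at 4294, 4447 and 3317 RPM in the HFD libraries. The groups did not overlap, and the log2 fold change was 0.69 ± 0.32 (SE), with an unadjusted p of 0.032 and an adjusted p of 0.26 by edgeR's quasi-likelihood test. tRNA-Ser-TGA tRF5, which shares its reads, stood at 862, 1112 and 604 RPM in CD and at 1524, 1546 and 1133 RPM in HFD, also without overlap and with a log2 fold change of 0.70. Class other of tRNA-Ser-GGA had the largest change of the family in the main comparison, from 10.1, 10.9 and 8.54 RPM in CD to 15.7, 14.9 and 21.0 RPM in HFD. Its log2 fold change was 0.81 ± 0.30 (SE), with an unadjusted p of 0.0069 and an adjusted p of 0.21 by edgeR's quasi-likelihood test. With genome-matched reads alone tRNA-Ser-CGA tRF3 had a larger one, 0.88. The search found no gene of tRNA-Ser-GGA, and whether its reads come from a tRNA for serine was not tested.

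The remaining 2 calls were weaker. Class other of tRNA-Ser-AGA stood at 47.9, 64.3 and 33.2 RPM in CD and at 99.7, 64.6 and 66.0 RPM in HFD (log2 fold change 0.66), so that the lowest HFD library lies just above the highest CD library. tRNA-Ser-CGA tRF3 stood at 6.83, 8.01 and 4.69 RPM in CD and at 13.7, 8.25 and 7.92 RPM in HFD (log2 fold change 0.62), and there the groups overlap. Of the 9 tRFs not called, tRNA-Ser-GCT tRF5 stood at 241, 347 and 229 RPM in CD and at 509, 325 and 253 RPM in HFD, where CD replicate 2 exceeds 2 of the 3 HFD libraries. In all, 6 of the 14 tRFs had every HFD library above every CD library, beside 26.8% of all tRFs tested. The tRF5 of tRNA-Ser-AGA and of tRNA-Ser-TGA, which share reads, are both among them.

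The number of calls changed with the libraries kept. Without CD replicate 2, 11 tRNA-Ser tRFs were called higher, beside 36.6% of all tRFs, and the median over all tRFs was 0.62. In that fit 3 passed an adjusted p under 0.05, beside 18.3% of all tRFs: tRNA-Ser-AGA tRF5 (log2 fold change 0.88), tRNA-Ser-TGA tRF5 (0.93) and class other of tRNA-Ser-GCT (0.92). The tRF5 of AGA and of TGA share reads and are not separate results. Without CD replicate 1, CD replicate 3 or HFD replicate 1 there was 1 call each. The summed markers of white blood cells, 3 of 3 of which were present, stood at 279 to 333 RPM in the CD libraries and at 419 to 712 RPM in the HFD libraries, and their part in the tRNA-Ser differences was not tested. The rRNA share of clean reads, which the library size leaves out, was 16.5% to 25.2% in CD and 24.7% to 32.9% in HFD, and with all clean reads as library size 1 tRNA-Ser tRF was called.

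The makeup of the family was compared between the diets with the exact permutation test, whose p cannot go below 0.1 with 3 against 3 libraries. Class tRF5 made up 79.9% ± 1.59 (SD, n = 3) of tRNA-Ser reads in CD and 80.8% ± 1.48 (SD, n = 3) in HFD (exact permutation p = 0.5, adjusted 0.75). The share of each isoacceptor within the family gave exact permutation p-values from 0.1 to 1, and the lowest belonged to tRNA-Ser-CGA, with means of 1.37% in CD and 1.29% in HFD (adjusted p = 0.5). For tRNA-Ser-CGA the 3 CD libraries, at 1.33%, 1.36% and 1.41%, all lay above the 3 HFD libraries, at 1.29%, 1.32% and 1.27%.

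**Figure D3:**
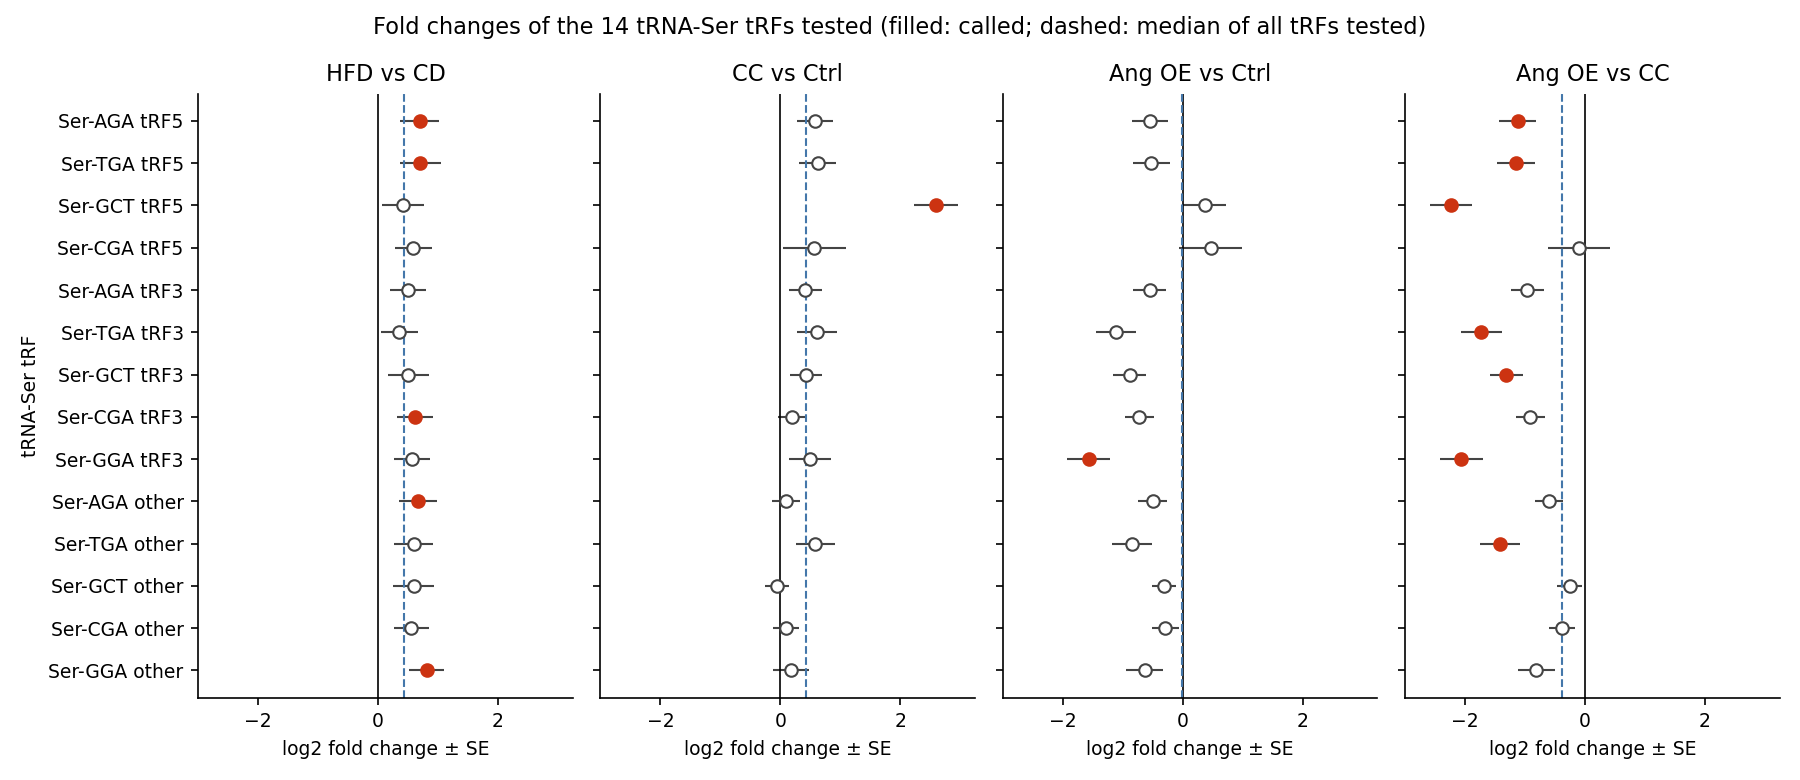
Log2 fold change ± SE (horizontal axis) of the 14 tRNA-Ser tRFs tested (vertical axis) in 4 comparisons (panels), with filled points for tRFs called by the thresholds of that comparison and a dashed line at the median of all tRFs tested. The tRF5 of tRNA-Ser-GCT lies at 2.60 for CC against Ctrl, apart from the other 13 tRFs, which lie between -0.06 and 0.62.

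In TM4 cells, 1 tRF of the family was called higher after Compound C, the 5′ fragment of tRNA-Ser-GCT. In 6 of the 14 both CC libraries lay above both Ctrl libraries, beside 55.9% of all tRFs tested. tRNA-Ser-GCT tRF5 stood at 1.24 and 1.17 RPM in the Ctrl libraries (62 and 70 reads) and at 5.63 and 9.01 RPM in the CC libraries (291 and 429 reads). Both CC libraries lie far above both Ctrl libraries. The level was 6.06-fold higher, with a log2 fold change of 2.60 ± 0.36 (SE) and an adjusted p of 0.017 by edgeR's quasi-likelihood test. It was the only tRF called among the 143 tested, which makes 0.699% called, and it ranked 1st of them by p-value. It was called under each alternative run and without each library in turn, with log2 fold changes from 2.20 to 2.90. The share of tRNA-Ser-GCT reads that were tRF5 was 0.647% to 0.738% in Ctrl and 2.95% to 3.40% in CC. This level remained far under that in sperm, where the same fragment took 21.0% to 31.01% of the isoacceptor's reads.

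**Figure D4:**
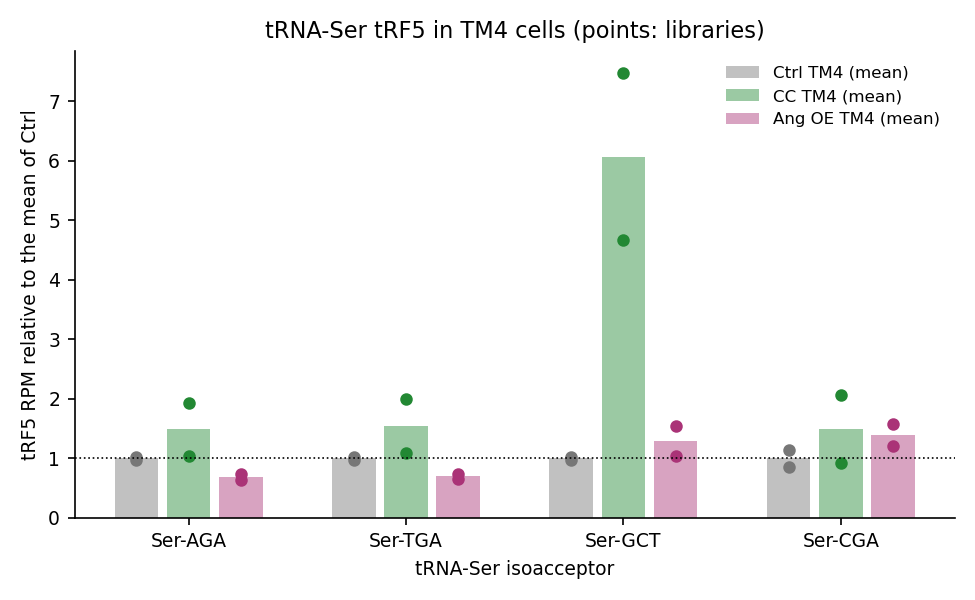
Level of tRF5 relative to the mean of the Ctrl libraries (vertical axis, 1 is the Ctrl mean) for 4 tRNA-Ser isoacceptors (horizontal axis) in TM4 cells, with bars at the group mean of 2 libraries and a point per library. The CC libraries stand at 4.67 and 7.47 for tRNA-Ser-GCT and at 0.927 to 2.07 for the other 3 isoacceptors.

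The other 5′ fragments did not pass the test after CC. tRNA-Ser-AGA tRF5 stood at 38.0 and 36.0 RPM in Ctrl and at 38.7 and 71.4 RPM in CC, a log2 fold change of 0.57 ± 0.30 (SE). The higher mean came from CC replicate 2, while CC replicate 1 stood beside the Ctrl libraries. The same held for tRNA-Ser-TGA tRF5, at 11.1 and 10.6 RPM in Ctrl and at 11.7 and 21.6 RPM in CC, and for tRNA-Ser-CGA tRF5, which rested on 17 to 39 reads per library. Over the 14 tRNA-Ser tRFs the median log2 fold change was 0.46, beside 0.43 over all tRFs tested, which TMM scaling moved to 0.06. Among the 4 tRF5 of the family the median was 0.60, beside -0.42 over the tRF5 of all tRNAs tested. The 5 tRF3 had log2 fold changes from 0.19 to 0.61 and class other from -0.06 to 0.58, and none of these was called.

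In cells that overexpressed Ang, 12 of the 14 tRNA-Ser tRFs had a lower mean than in Ctrl cells, beside 51.7% of all tRFs tested, and 1 of them, a 3′ fragment, passed the test. tRNA-Ser-GGA tRF3 stood at 59.1 and 72.4 RPM in Ctrl and at 16.1 and 28.3 RPM in Ang OE. It was called lower, with a log2 fold change of -1.56 ± 0.36 (SE) and an adjusted p of 0.031 by edgeR's quasi-likelihood test, 1 call of 14 beside 5.59% of the 143 tRFs called lower and 4.2% called higher. The search found no gene of this isoacceptor. Its CCA-tailed reads matched the genome, while nearly all of those of the other isoacceptors did not. Whether the reads listed as tRNA-Ser-GGA come from a tRNA for serine was not tested. Without Ctrl replicate 2 or without Ang OE replicate 1 the adjusted p was 0.11 and 0.088, and the call was lost. tRNA-Ser-TGA tRF3 stood at 57.1 and 72.4 RPM in Ctrl and at 21.4 and 38.3 RPM in Ang OE, with a log2 fold change of -1.12 ± 0.33 (SE) and an adjusted p of 0.071 by edgeR's quasi-likelihood test. It passed that threshold under DESeq2, TMM scaling, ComBat-seq and the model of the 2 groups alone.

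The other 3′ fragments had lower values in Ang OE without passing the test. tRNA-Ser-GCT tRF3 stood at 131 and 151 RPM in Ctrl and at 75.0 and 77.8 RPM in Ang OE (log2 fold change -0.88), and tRNA-Ser-CGA tRF3 had a log2 fold change of -0.72 and tRNA-Ser-AGA tRF3 one of -0.55. The 5 tRF3 of the family had a median log2 fold change of -0.88, beside -0.65 over the tRF3 of all tRNAs tested. Among tRF5 the median was -0.08 for the family and 0.63 over all tRNAs tested. tRNA-Ser-GCT tRF5, the fragment called after CC, stood at 1.25 and 1.85 RPM in Ang OE (62 and 101 reads), a log2 fold change of 0.37 ± 0.36 (SE) that was not called. In 12 of the 14 tRFs both Ang OE libraries lay under both Ctrl libraries, beside 42.0% of all tRFs tested. The summed smooth muscle markers, 2 of 2 of which were present, stood at 61711 and 79792 RPM in Ang OE, at 30286 and 42667 RPM in CC and at 31248 and 29770 RPM in Ctrl. Summed germ cell markers, 6 of 8 of which were present (mir-880 and mir-463 at 0), stood at 1335 and 1195 RPM in Ang OE, at 550 and 595 RPM in CC and at 591 and 609 RPM in Ctrl, and summed red blood cell markers, 3 of 3 present, at 584 and 547 RPM in Ang OE, at 579 and 547 RPM in CC and at 806 and 822 RPM in Ctrl. White blood cell markers summed to 1.45 to 2.42 RPM in the 6 TM4 libraries, highest in the Ctrl ones. The part of these markers in the TM4 differences was not tested.

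The test of Ang OE against CC compares both treatments directly and does not use the Ctrl libraries as a reference. Between them 7 tRNA-Ser tRFs were called lower in Ang OE and 0 higher, beside 27.3% of the 143 tRFs called lower and 11.2% called higher, and 9 were lower at an adjusted p under 0.05 whatever the fold change, beside 38.5% of the tRFs. tRNA-Ser-GCT tRF5 differed most, at 5.63 and 9.01 RPM in CC and at 1.25 and 1.85 RPM in Ang OE, with a log2 fold change of -2.23 ± 0.36 (SE) and an adjusted p of 0.00465 by edgeR's quasi-likelihood test. The tRF3 of tRNA-Ser-GGA, tRNA-Ser-TGA and tRNA-Ser-GCT had log2 fold changes of -2.06, -1.73 and -1.31, class other of tRNA-Ser-TGA had one of -1.42, and the tRF5 of tRNA-Ser-TGA and tRNA-Ser-AGA, which share reads, had -1.15 and -1.12. The median log2 fold change over the 4 tRF5 was -1.14 for the family and 1.02 over the tRF5 of all tRNAs tested. The median over all tRFs was -0.38, and TMM scaling moved it to 0.03 and left 3 tRNA-Ser calls, while DESeq2 with its own size factors left 4.

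Both relatives of tRNA-Ser with a long variable arm were read beside it. For HFD against CD, 3 of 15 tRNA-Leu tRFs and 1 of 3 tRNA-SeC tRFs were called higher, with median log2 fold changes of 0.54 and 0.68, beside 16.2% of all tRFs called higher. After CC neither family had a call, beside 0.699% of all tRFs, with 4 of 15 and 0 of 3 tRFs at an unadjusted p under 0.05, beside 27.3% of all. For Ang OE against Ctrl, 2 of 15 tRNA-Leu tRFs were called lower with a median of -0.51, and 1 of 3 tRNA-SeC tRFs was called higher with a median of 0.995, beside 5.59% of all tRFs called lower and 4.2% called higher. For Ang OE against CC, 6 of 15 tRNA-Leu tRFs were called lower with a median of -0.85 and 1 of 3 tRNA-SeC tRFs higher with a median of 0.95, beside 27.3% of all tRFs called lower and 11.2% called higher, and the tRNA-Ser median was -1.04. tRNA-SeC thus lay on the other side of 0 from tRNA-Ser in Ang OE, although the same synthetase charges both, and the difference between them was not tested. By the lower of the correlations within sperm and within TM4 libraries, the 3 families most like tRNA-Ser in level were tRNA-Cys, tRNA-Leu and tRNA-Ala, with Pearson's r of log2 RPM of 0.94, 0.93 and 0.93 over the 6 sperm libraries and of 0.94, 0.99 and 0.97 over the 6 TM4 libraries. These values describe libraries that share depth and treatment, and they carry no test.

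Class other of the family also differed from that of the other tRNAs in its match to the genome. The authors' annotation allows 1 mismatch to the tRNA database and records apart the reads without a match to the mouse genome. Of the tRNA-Ser reads in class other, 70.7% to 79.4% had no match to the genome in the 6 sperm libraries, against 2.15% to 3.42% for the other mature tRNAs of the same libraries. In TM4 cells it was 12.5% to 26.1% against 2.65% to 4.88%. The share was higher for tRNA-Ser in each of the 12 libraries. CCA-tailed reads are in class tRF3 and take no part in it. Nearly all of them lacked a genome match, except those of tRNA-Ser-GGA, which all matched.

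Within the family, tRNA-Ser-GCT gave 88.5% to 92.4% of the unmatched reads of class other in sperm and 42.9% to 60.5% in TM4 cells. In sperm 79.2% to 88.2% of its class other had no genome match, the highest share among the 49 to 50 isoacceptors with at least 100 such reads in each sperm library. It gave 34.7% to 41.6% of all unmatched reads of class other in sperm, while it gave 1.38% to 2.83% of the reads of that class. In TM4 cells 15.1% to 31.1% of its class other was unmatched, which placed it 8th to 16th of 50 isoacceptors, and it gave 1.18% to 1.72% of all unmatched reads of class other. For tRNA-Ser-TGA the share was 52.6% to 64.4% in sperm and 37.2% to 73.9% in TM4 cells, for tRNA-Ser-CGA 30.97% to 51.9% and 3.37% to 9.17%, and for tRNA-Ser-AGA 9.39% to 17.6% and 18.4% to 33.2%. tRNA-Ser-GGA had 0% in every library, and its CCA-tailed reads matched the genome too. The diets overlapped in this share for tRNA-Ser-GCT. The reads' sequences were not analysed here, so which positions differ from the genome was not tested.

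**Figure D5:**
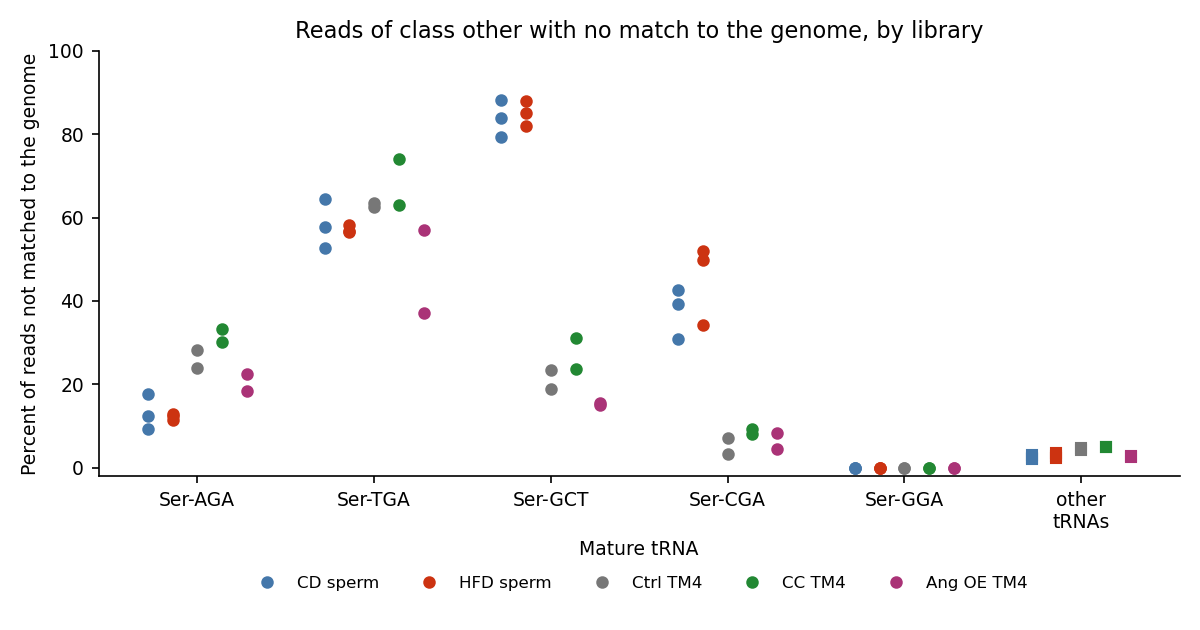
Percent of class other reads without a match to the genome (vertical axis) for each tRNA-Ser isoacceptor and for the other mature tRNAs together (horizontal axis), with 1 point per library colored by group. tRNA-Ser-GCT stands at 79.2% to 88.2% in the sperm libraries and at 15.1% to 31.1% in the TM4 libraries, and the other mature tRNAs stand at 2.15% to 4.88% throughout.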

How the data were processed

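Small RNA libraries of mouse sperm and TM4 cells were analysed, 12 in 5 groups taken from the sample labels. Per the study's methods and the submitters' processing notes, the authors checked read quality (FastQC 0.12.0), trimmed the reads (Trimmomatic 0.40) and kept those of 15 to 45 nt. They annotated them with SPORTS1.1 against rRNA, tRNA, miRNA and further databases in turn, with 1 mismatch allowed and mm10 as genome build. The deposited tables hold estimated counts for each annotation subclass, not normalized, and the fractions in them come from reads that the authors' run split over more than 1 subclass.

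Reads with and without a genome match were added. RPM levels take the clean reads less the rRNA reads as library size. Counts were rounded and tested with edgeR 4.0.16 in R 4.3.3 (quasi-likelihood test, that library size, no further scaling, Benjamini-Hochberg adjustment over all tRFs tested). A tRF was tested where 3 sperm libraries, or 2 in models with TM4 cells, held 10 reads or more of it. Calls in sperm took a fold change over 1.5 and p under 0.05 before adjustment, and those in TM4 cells and for CD sperm against Ctrl TM4 cells a fold change over 2 and p under 0.05 after it. TM4 groups shared a model of 6 libraries, and CD sperm against Ctrl TM4 cells used a model of 12. Shares were compared with exact permutation tests in Python 3.11.15 (scipy 1.17.1). The pipeline was run on simulated data with log2 changes of 2 in 30 tRFs, larger than those seen between the diets. For HFD against CD it recovered 30 of them, with 6 false calls under the sperm thresholds. In the other comparisons it recovered 29 to 30, with 0 to 2 false calls. Recovery of smaller changes was not simulated. The study adjusted the TM4 counts for batches that its text does not name, so the main model holds no batch term, and ComBat-seq (sva 3.50.0) with the replicate number as batch was an alternative.

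Alternatives were TMM scaling, DESeq2 1.42.0 with the same library sizes or its own size factors, a library size with rRNA reads included, no filter or one of 100 reads, genome-matched reads alone, the CCA tail as a class of its own, the replicate number as a block, the 2 compared groups alone, and each library left out in turn. All 15 tRNA-Ser tRFs were to be named, with tRNA-Leu, tRNA-SeC and the 3 families closest in level. The members and the lists were chosen with earlier results of these data known. tRNA-Ser genes were found in GRCm39 by the A box, the B box and a cloverleaf fold, over lengths of 70 to 95 nt, and set against GENCODE vM39 and the RefSeq gene table of GRCm38.p6. Coordinates are those of GRCm39 and were not used with the mm10 annotation of the reads. Some tRNA-Ser gene sequences are not reported here. Mitochondrial tRNA-Ser was left out of the comparisons.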

Additional observations from a re-analysis of the deposited data

Results flagged for a closer look

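The mitochondrial tRNAs for serine are a separate set, encoded by mitochondrial DNA, and were left out of the comparisons. The level of mitochondrial tRNA-Ser-TGA stood at 75.9, 84.8 and 57.9 RPM in the CD libraries and at 86.2, 98.8 and 120 RPM in the HFD libraries, a ratio of means of 1.39, while the median log2 fold change of all nuclear-encoded tRFs tested was 0.44 between the diets and -0.06 under TMM scaling. The same tRNA stood at 50.9 and 50.6 RPM in Ctrl, at 49.6 and 63.5 RPM in CC and at 83.7 and 84.1 RPM in Ang OE. The ratio of means was 1.65 for Ang OE against Ctrl. These values drew attention because every library of HFD and of Ang OE lay above every library of its control group, in data outside the comparisons of the report. Neither difference was tested. Mitochondrial tRNA-Ser-GCT stood at 507, 625 and 557 RPM in CD and at 378, 809 and 722 RPM in HFD, where the groups overlap. It stood at 271 and 196 RPM in Ctrl, at 234 and 152 RPM in CC and at 127 and 154 RPM in Ang OE.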

How the results depend on the processing

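Limits: 2 or 3 libraries a group leave the exact tests without power, the TM4 batches are unnamed, and tRFs under about 40 reads per library, such as tRNA-Ser-CGA tRF5 in TM4 cells, carry wide counting error.

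The number of tRNA-Ser tRFs called for HFD against CD was 5, and 0 under TMM scaling, 0 under DESeq2 with its own size factors and 1 with all clean reads as library size. For Ang OE against Ctrl it was 1, and 2 under TMM scaling, both forms of DESeq2, the 2 groups alone and ComBat-seq, the added call being tRNA-Ser-TGA tRF3. For Ang OE against CC it was 7, and 3 under TMM scaling, 4 under DESeq2 with its own size factors and 4 with genome-matched reads alone. For these counts the cause of the change was not tested. The tRNA-Ser share for Ang OE against Ctrl had a log2 ratio of -1.60, and -0.81 with the clean reads without rRNA as denominator. The tRF5 share of tRNA-Ser exceeded that of the other tRNAs in sperm by 22.4 percentage points with genome-matched reads alone, a setting that removes class other and tRF3 reads of tRNA-Ser and none of its tRF5. In TM4 cells the difference was -10.4 percentage points in that setting, against -25.3 with all reads.

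Leaving out each library in turn gave 1 to 11 calls for HFD against CD, 1 for CC against Ctrl, 0 to 2 for Ang OE against Ctrl, 5 to 10 for Ang OE against CC and 10 to 11 for CD sperm against Ctrl TM4 cells. Over the same omissions the log2 ratio of the tRNA-Ser share was 0.34 to 1.101 for HFD against CD, -0.016 to 0.58 for CC against Ctrl and -1.81 to -1.35 for Ang OE against Ctrl. The tRF5 share within tRNA-Ser differed between the diets by 0.123 to 1.82 percentage points, and from that of the other tRNAs by 7.34 to 10.7 in sperm and by -31.7 to -19.9 in TM4 cells.

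With the replicate number as a block, 4 tRNA-Ser tRFs were called for HFD against CD, 1 for CC against Ctrl, 2 for Ang OE against Ctrl and 7 for Ang OE against CC. Same-numbered CD and HFD libraries correlated in their deviations from the group means at 0.02, 0.21 and 0.21, so the pairing of the numbers was not upheld. Same-numbered libraries correlated at 0.76 for Ctrl and CC, -0.22 for Ctrl and Ang OE and -0.26 for CC and Ang OE. With the Ang OE numbers crossed, an alternative chosen after seeing the data, the block gave 1 call against Ctrl and 7 against CC.

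Signs turned for tRFs that were not called in the main comparison, except 2 of CD sperm against Ctrl TM4 cells. TMM scaling turned the log2 fold change for HFD against CD to -0.080 for tRNA-Ser-GCT tRF5 and -0.12 for tRNA-Ser-TGA tRF3 (-0.028 under DESeq2 with its own size factors), the latter with -0.073 to 0.63 over the libraries left out. For CC against Ctrl, TMM and DESeq2 with its own size factors gave -0.25 and -0.28 for tRNA-Ser-AGA other, -0.25 and -0.28 for tRNA-Ser-CGA other, -0.17 and -0.20 for tRNA-Ser-CGA tRF3 and -0.21 and -0.24 for tRNA-Ser-GGA other. Genome-matched reads alone gave -0.017 for tRNA-Ser-AGA other, and tRNA-Ser-GCT tRF3 without the CCA tail stood at -0.00638. With libraries left out, CC against Ctrl ranged from -0.044 to 0.23 for tRNA-Ser-AGA other, -0.095 to 0.43 for tRNA-Ser-CGA tRF3, -0.12 to 1.04 for tRNA-Ser-CGA tRF5, -0.17 to 0.074 for tRNA-Ser-GCT other and -0.27 to 0.51 for tRNA-Ser-GGA other. For Ang OE against CC, TMM and DESeq2 with its own size factors gave 0.031 and 0.042 for tRNA-Ser-CGA other, 0.34 and 0.38 for tRNA-Ser-CGA tRF5 (0.11 under ComBat-seq, and -0.57 to 0.58 over the libraries left out) and 0.15 and 0.16 for tRNA-Ser-GCT other. For CD sperm against Ctrl TM4 cells they gave -0.19 and -0.027 for tRNA-Ser-CGA other. Genome-matched reads alone and the CCA tail as a class of its own gave 4.21 and 4.21 for tRNA-Ser-AGA tRF3, 3.66 and 3.61 for tRNA-Ser-CGA tRF3, 5.32 and 6.63 for tRNA-Ser-GCT tRF3 and 5.31 and 5.31 for tRNA-Ser-TGA tRF3, where the tail as its own class sets all CCA-tailed reads of these 4 apart and the genome match drops most of them, and tRNA-Ser-GCT tRF3 ranged from -0.31 to 0.084 over the libraries left out.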
